A study of Mus musculus with 27 samples.

Results

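Higd1a, Clmn, Ramp1, Fam134b, Man2a1, Bambi and Olfml2b are 7 of the 26487 genes counted in adult mouse islets. They were chosen by their counts, which were high in islets carrying a beta-cell mutation of the transcription factor Nkx2.2, either a change in its SD domain (betaSDmut) or the allele labelled as a knockout (betaKO). Those islet values therefore chose the genes and are given below as a description, with no test. The embryonic pancreas, the neural progenitors and the map of Nkx2.2 binding played no part in the choice.

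The islets came from 8-week mice (2 control and 3 betaSDmut libraries) and from 4-week mice (2 control and 2 betaKO libraries). Genotype and age thus differ together between the 2 mutants, and each was compared with the controls of its own age. The labels name both mutations as beta-cell ones. How the alleles were confined to beta cells, and any Cre line used, is not given in the sources used here. Whole pancreas was taken from embryos at E15.5, counted in days of gestation, from 3 controls and 4 SDmut embryos. Motor neuron progenitors were differentiated from mouse embryonic stem cells to day 4. Of these, 3 libraries of the iNkx2.2 line without doxycycline are named pMN, 3 libraries of the same line made wild-type Nkx2.2 (iNkx2.2), and 2 libraries of another line made the SD mutant (iSDmut), in both cases after about 16 h of doxycycline at 1 µg/ml. Nkx2.2 binding was mapped by chromatin immunoprecipitation and sequencing (ChIP-seq) with 2 libraries of MIN6, a mouse beta-cell tumour line. The labels do not say whether replicates came from separate animals or cultures, so p-values measure the spread between these libraries.

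Nkx2.2 is a homeodomain factor that beta cells need to form and to keep their identity. It can silence genes of other fates by recruiting corepressors, and the SD domain is a short conserved region outside the homeodomain. The 7 genes do different work. Higd1a is a small inner-membrane protein of mitochondria that is induced by low oxygen, and Fam134b (Retreg1) is a receptor that delivers endoplasmic reticulum to autophagosomes. Clmn (calmin) is a membrane-anchored protein with calponin-homology domains. Ramp1 pairs with the calcitonin receptor-like receptor to make the receptor of the neuropeptide CGRP, and Bambi is a decoy receptor without a kinase that dampens TGF-beta and BMP signals. Man2a1 is mannosidase II, a Golgi enzyme that trims N-glycans. Olfml2b is a secreted protein with an olfactomedin domain.

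Total counts per library were 12398041 to 32385406 in islets, 38447596 to 41840638 in E15.5 pancreas and 17757991 to 46840701 in progenitors. Nkx2-2 itself was not lower in either islet mutant beyond the spread: its log2 fold change was -0.10 in betaSDmut islets (edgeR adjusted p 0.681) and -0.18 in the islets labelled betaKO (edgeR adjusted p 0.779, means 78.7 CPM beside 89.4 CPM in controls). The counts do not show which part of the transcript was read, so the betaKO libraries are named by their label only. In progenitors the induced transgenes were plain, with log2 fold changes over pMN of 5.25 for iNkx2.2 and 4.73 for iSDmut. Control 3 and SDmut 2 at E15.5 stood apart through muscle transcripts, whose markers summed to 5613 and 6494 CPM (counts per 1e+06 scaled library counts) against 11.4 to 75.9 CPM in the other libraries.

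In MIN6 cells, 6 of the 7 genes were joined to an Nkx2.2 site in the authors' deposited table of bound genes. There, a joined site was given for 26.0% of 9971 genes. The genomic windows of 4 of these sites are printed because they show what the factor was found on: the strongest (Higd1a), the next strongest (Fam134b), the one closest to its gene's start (Ramp1) and one in a neighbouring gene (Olfml2b). Each is the 200 bases around the site on the plus strand of GRCm38, in lower case. Capitals mark a match to the core motif of Nkx2 factors, TNAAGT, searched on both strands.
Higd1a, chr9:121870077-121870276: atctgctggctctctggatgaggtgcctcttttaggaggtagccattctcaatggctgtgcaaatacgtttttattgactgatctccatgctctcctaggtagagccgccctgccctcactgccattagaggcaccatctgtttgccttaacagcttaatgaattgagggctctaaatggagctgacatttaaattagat
Fam134b, chr15:25814634-25814833: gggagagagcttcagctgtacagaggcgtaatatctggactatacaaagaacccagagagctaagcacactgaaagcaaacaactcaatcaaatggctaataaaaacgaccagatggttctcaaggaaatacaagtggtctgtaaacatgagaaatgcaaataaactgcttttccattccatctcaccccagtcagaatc
Ramp1, chr1:91181305-91181504: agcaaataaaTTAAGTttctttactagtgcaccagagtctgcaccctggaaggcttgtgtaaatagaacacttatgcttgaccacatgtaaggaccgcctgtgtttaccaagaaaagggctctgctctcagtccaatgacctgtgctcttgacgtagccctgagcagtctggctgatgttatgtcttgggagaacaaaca
Olfml2b, chr1:170741393-170741592: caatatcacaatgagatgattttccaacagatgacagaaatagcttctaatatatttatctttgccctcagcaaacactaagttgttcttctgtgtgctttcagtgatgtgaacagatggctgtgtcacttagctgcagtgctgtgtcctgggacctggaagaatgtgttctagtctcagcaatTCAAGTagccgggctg

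The Higd1a site was by far the strongest of the 6. It lay between genes, 11814 bp upstream of the start of Higd1a (chromosome 9, 121848563 to 121858362, minus strand), with 654 and 464 reads in the 2 libraries. Its log2 CPM of 9.71 and 9.63 placed it at rank 42 of 6473 final sites, the median of which was 6.82. No other joined site of the 7 genes was among the 647 strongest final sites. The 2 columns of log2 CPM hold nearly the same sorted values, with a largest gap of 0.034, so the columns share 1 scale by construction. No input library was used here, so these values are signal and not enrichment.

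The other sites differed in strength and place. Fam134b (chromosome 15, 25843180 to 25973687) had a site 28447 bp upstream, between genes, at rank 1640 (log2 CPM 7.42 and 7.29), and 5 final sites lay within 150000 bp of the gene. Another of these, at rank 2205, was nearer to the start, 21162 bp upstream, and its window held 2 matches to TNAAGT. The joined site, at 25814733, lies just past the end of Myo10 at 25813673, a gene with a joined site of its own. The Olfml2b site ranked 2339 (log2 CPM 6.82 and 7.35) and lay in an intron of Atf6, 96960 bp from the start of Olfml2b (chromosome 1, 170644532 to 170682789). The Clmn site, position 104824850 in an intron of Clmn (chromosome 12, 104763117 to 104865076), ranked 4385 (log2 CPM 6.79 and 6.27). The Ramp1 site ranked 5142 (log2 CPM 6.56 and 6.18) but was the closest to a start, in an intron 1582 bp inside Ramp1 (chromosome 1, 91179822 to 91225196). Bambi was joined to a weak site, rank 5952 (log2 CPM 6.37 and 6.01), 298619 bp from its start. Man2a1 (chromosome 17, 64600736 to 64755110) had no joined site and no final site within 150000 bp. The authors' list of 10749 binding events before the final selection held 2 near Man2a1: one 20439 bp upstream with 52 and 35 reads, and one in an intron with 51 and 30 reads.

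**Figure D1:**
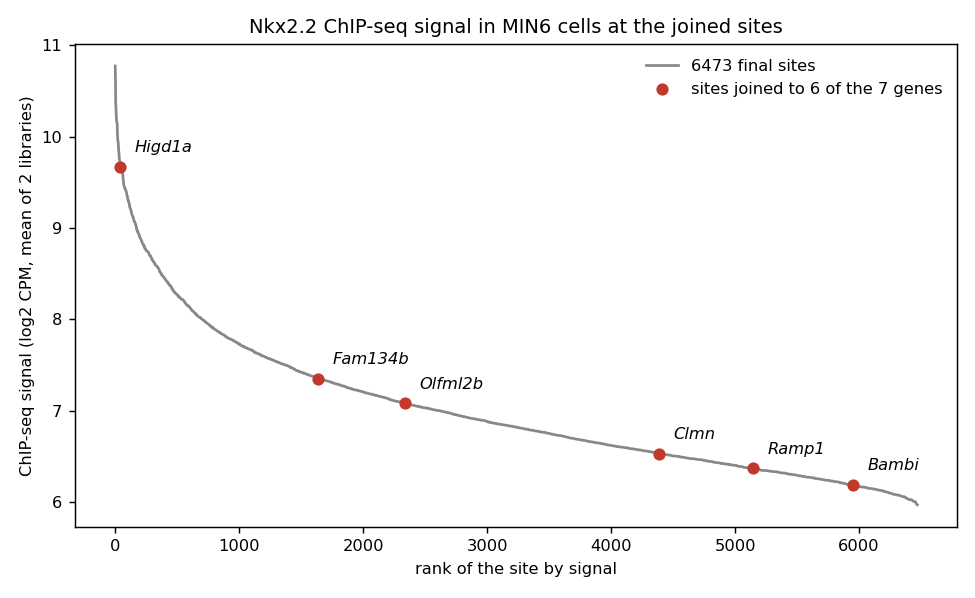
Nkx2.2 ChIP-seq signal in MIN6 cells (log2 CPM, mean of 2 libraries) for 6473 final sites in order of rank (line), with the sites joined to 6 of the 7 genes as points. The Higd1a site at rank 42 sits on the steep left end, Fam134b and Olfml2b lie above the median of 6.82, and Clmn, Ramp1 and Bambi lie below it.

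TNAAGT was no more frequent at the final sites than in sequence nearby, but the longer TNAAGTG was more frequent there. Forms without the leading T, such as AAGTG alone, were neither searched nor marked. An unmarked window is thus not shown to lack an Nkx2 motif. TNAAGT was found in 2 of the 5 windows of joined sites searched, those of Ramp1 and Olfml2b, at 86.5 and 87.5 bases from the window's centre. It was in 0 of 5 when windows were 100 bases long. Of all final sites 33.7% held a match, and of windows of 200 bases moved 1000 bases away 36.0% did. Of 32851 RefSeq promoters of 300 bases (GRCm38), 36.2% held it. The letters TNAAGTG, a longer form, were in 14.6% of final sites and 11.1% of the moved windows. Promoters of 6 of the 7 genes were in the RefSeq table, and TNAAGT was in the main promoter of Fam134b alone.

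All 7 genes were higher in every mutant islet library than in every control library of the same age, as the choice of genes required in part. Across all genes tested, 23.0% were higher without overlap in the 8-week comparison and 23.2% in the 4-week comparison. Of 14762 genes tested at both ages, 58 (0.393%) passed edgeR's adjusted p of 0.05 as higher in both, a count that rests on few libraries. It was 8 and 9 without 8-week control 1 or 2, 38 without betaSDmut 2, 2 without either 4-week control, 20 without betaKO 2, and 160 by DESeq2. The median log2 fold change of the 7 genes was 2.31 at 8 weeks and 1.55 at 4 weeks, beside medians of 0.0058 and -0.0036 for all genes tested. The name of the group holds weakly for Bambi at 8 weeks and for Olfml2b at 4 weeks, as their values show. In islet tissue, more RNA per cell and more cells of a type that carries the RNA cannot be told apart.

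Higd1a had the largest increase of the 7 in betaSDmut islets. It was at 10.6 and 10.8 CPM in 8-week controls and at 78.4, 81.4 and 77.2 CPM in betaSDmut islets, and at 9.15 and 9.13 CPM in 4-week controls and 33.6 and 35.1 CPM in betaKO islets. The libraries of each group lay close together, and each mutant group was far above its controls. The ratios of means were 7.38 in betaSDmut and 3.76 in betaKO islets, with log2 fold changes of 2.88 (SE 0.07) and 1.91 (SE 0.11).

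Fam134b, the reticulophagy receptor, had changes closer in size in the 2 mutants than Higd1a did. Its levels were 15.2 and 16.4 CPM in 8-week controls, 76.7, 90.2 and 70.2 CPM in betaSDmut, 10.7 and 9.48 CPM in 4-week controls, and 38.6 and 39.2 CPM in betaKO islets. The log2 fold changes were 2.31 (SE 0.13) and 1.94 (SE 0.12). By the smaller of its 2 changes it ranked 41 among 14762 genes, with Higd1a at 43 and Ramp1 at 47.

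Clmn was further above its controls in betaSDmut than in betaKO islets. It was at 13.9 and 12.8 CPM against 75.0, 76.5 and 77.9 CPM at 8 weeks, and at 7.99 and 6.92 CPM against 19.7 and 16.7 CPM at 4 weeks. The 3 betaSDmut libraries were within a few CPM of each other, and the betaKO libraries only just exceeded the 8-week controls. Log2 fold changes were 2.51 (SE 0.08) and 1.28 (SE 0.17).

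Of the 2 receptor genes, Ramp1 was the one with similar changes in both mutants. It had 7.68 and 7.02 CPM in 8-week controls, 32.5, 32.4 and 29.7 CPM in betaSDmut, 6.24 and 3.88 CPM in 4-week controls, and 21.8 and 14.7 CPM in betaKO islets. The 4-week libraries were the more scattered, and the log2 fold change of 1.83 (SE 0.31) there had a larger error than the 8-week value of 2.10 (SE 0.09).

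Bambi had its larger change in betaKO islets. In 4-week mice it was at 40.0 and 46.1 CPM in controls and at 120.2 and 132.4 CPM in betaKO islets, a log2 fold change of 1.55 (SE 0.11). In 8-week mice the controls were already at 87.2 and 80.2 CPM and the betaSDmut islets at 108.4, 117.8 and 139.2 CPM, a log2 fold change of 0.54 (SE 0.13) and a ratio of means of 1.46. The mutant levels overlapped between the ages while the control levels did not. Counts of Bambi are uncertain because the table also holds a pseudogene, Bambi-ps1, and the counting rule is not given in the sources used here.

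Man2a1, the Golgi mannosidase, was higher by a similar factor in both mutants. It was at 85.5 and 101.5 CPM against 163.6, 228.8 and 172.9 CPM at 8 weeks, and at 51.1 and 56.0 CPM against 131.5 and 129.2 CPM at 4 weeks. The betaSDmut libraries were the most scattered of the 4 groups. Log2 fold changes were 1.00 (SE 0.17) and 1.28 (SE 0.09).

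Olfml2b showed the reverse of Bambi, with nearly all of its change in betaSDmut islets. It was at 16.4 and 15.3 CPM in 8-week controls and at 101.3, 100.8 and 83.4 CPM in betaSDmut islets, a log2 fold change of 2.58 (SE 0.11) and a ratio of means of 6.02. At 4 weeks, controls were at 19.0 and 27.6 CPM and betaKO islets at 29.7 and 38.9 CPM, a log2 fold change of 0.56 (SE 0.23). The lower betaKO library was only just above the higher control.

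**Figure D2:**
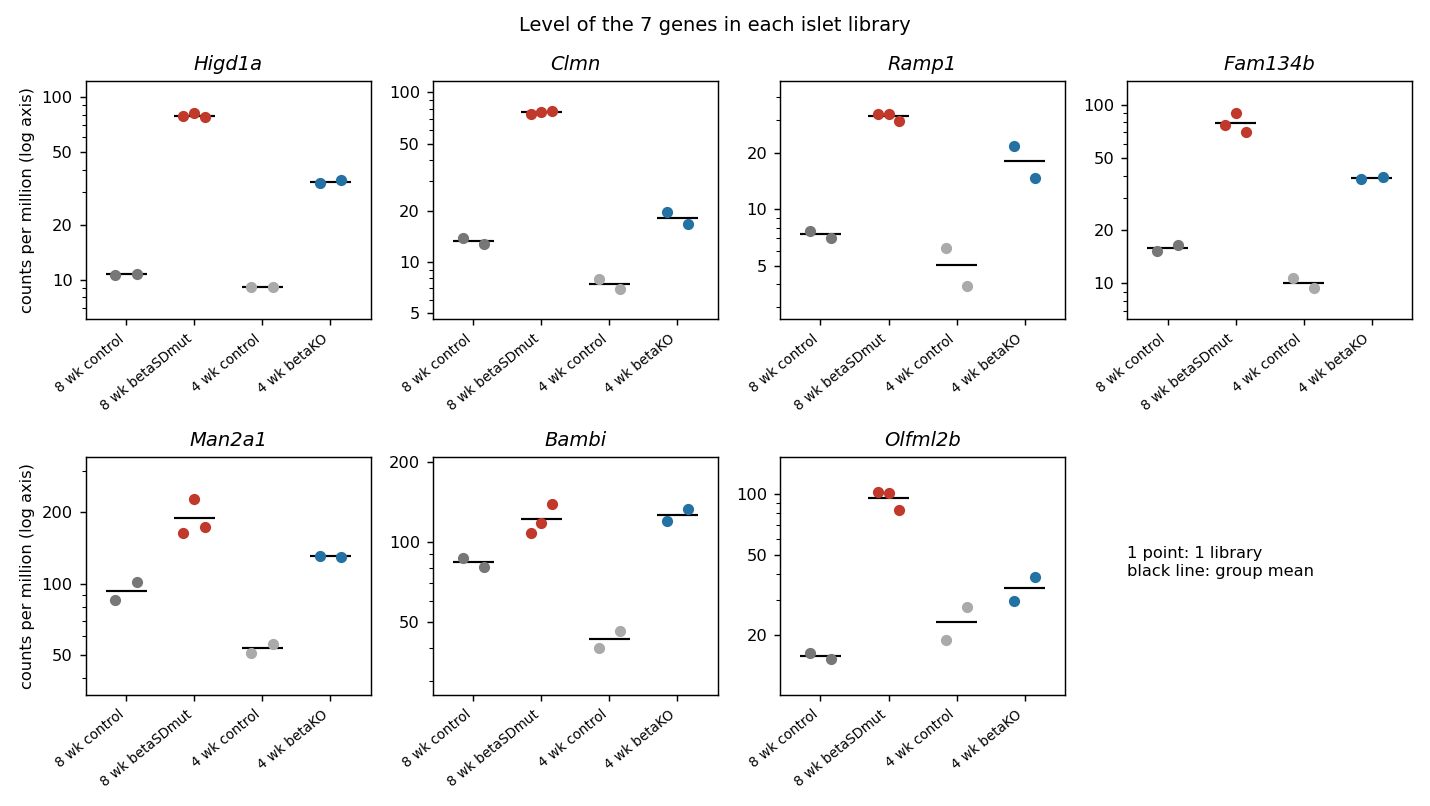
Level of each of the 7 genes (TMM-scaled CPM, log axis) in the 9 islet libraries: 1 point per library, with the group mean as a line. All mutant points lie above the controls of their age. Higd1a and Clmn stand farther above them in betaSDmut, Ramp1 about as far in both mutants, Bambi farther in betaKO and Olfml2b farther in betaSDmut.

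The difference between the 2 mutant effects, taken in a model of all 9 islet libraries, ordered the genes the same way. The betaSDmut change exceeded the betaKO change by 2.03 (SE 0.27) on the log2 scale for Olfml2b, 1.24 (SE 0.15) for Clmn and 0.97 (SE 0.10) for Higd1a. For Fam134b it was smaller (0.38, SE 0.17) but kept its sign in every other setting run. For Ramp1 the difference was below its error (0.28, SE 0.32) and took the other sign, -0.13, without 4-week control 1. For Man2a1 it was -0.27 (SE 0.22), close in size to its error. For Bambi the betaKO change was the larger, with a difference of -1.01 (SE 0.18). Age and mutation differ together here, so their parts in these differences cannot be told apart.

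**Figure D3:**
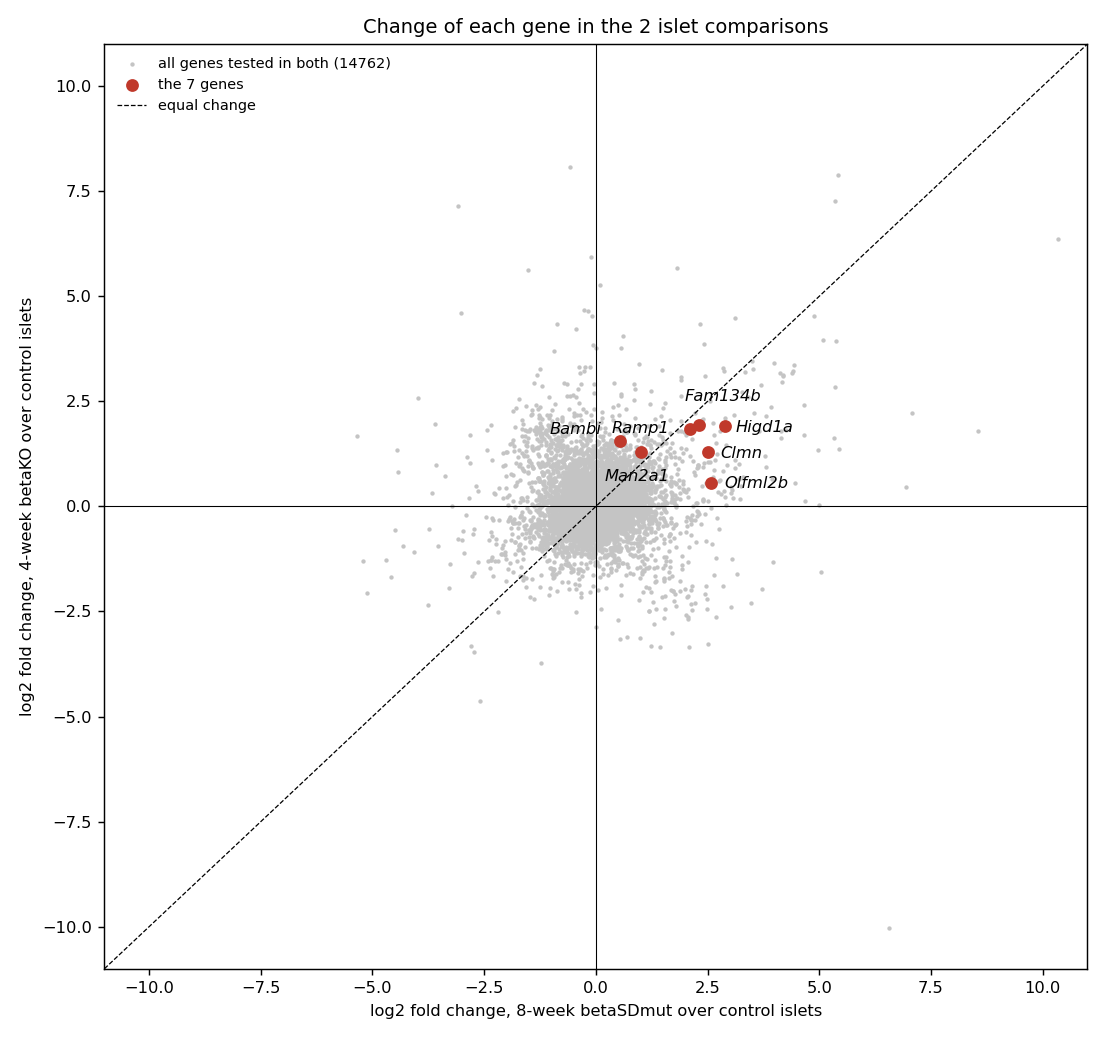
Log2 fold change of every gene tested in both islet comparisons, betaSDmut at 8 weeks across and betaKO at 4 weeks up, with the 7 genes in red and the line of equal change dashed. Both changes are positive for all 7: Bambi and Man2a1 lie above the line and the other genes below it, Olfml2b farthest.

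On the authors' FPKM scale, which divides by transcript length and so allows genes to be ranked, the order of the 7 genes differed between the groups. In 8-week control islets the mean FPKM was highest for Bambi (21.5) and Man2a1 (19.5), followed by Fam134b (7.38), Olfml2b (6.74), Higd1a (5.51), Ramp1 (4.27) and Clmn (1.40). In betaSDmut islets Olfml2b (40.4), Man2a1 (39.9), Higd1a (38.9) and Fam134b (37.2) led, with overlapping libraries, and means were 31.5 for Bambi, 17.7 for Ramp1 and 8.17 for Clmn. The libraries of Bambi, from 27.4 to 36.8, overlapped with those of Olfml2b, Man2a1 and Fam134b as well. In 4-week control islets Man2a1 (12.3), Bambi (12.1) and Olfml2b (10.3) led with overlapping libraries, followed by Higd1a (5.47), Fam134b (5.14), Ramp1 (3.13) and Clmn (0.876). In betaKO islets Bambi (31.8) and Man2a1 (26.9) led, and then came Higd1a (17.8), Fam134b (16.3), Olfml2b (13.7), Ramp1 (9.93) and Clmn (1.99). Olfml2b thus stood above Higd1a and Fam134b in the 4-week controls and below both in the means of the betaKO islets, where its libraries overlapped with those of Fam134b.

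The authors' deposited tables give calls made with a cutoff of their own, on the islet values that chose the genes, so the calls are a description as well. The authors' deposited 8-week table called 6 of the 7 genes higher in betaSDmut islets, all but Bambi, where 3.98% of its 12989 genes were called higher. The authors' deposited table of 3 islet genotypes, which sets both mutants against shared controls, called all 7 genes higher in betaSDmut (9.41% of its 9971 genes) and 3 higher in betaKO (2.25% of its genes): Higd1a (log2 fold change 1.82), Fam134b (1.64) and Ramp1 (1.59). In the same deposited table, Higd1a, Clmn, Ramp1, Fam134b and Olfml2b were called lower in betaKO than in betaSDmut islets. Bambi and Man2a1 were not called in that contrast. Their log2 fold changes there were 1.09 and 0.90 in betaKO and 0.99 and 1.38 in betaSDmut islets. Against shared controls Bambi thus changed almost equally in both mutants, and Man2a1 changed more in betaSDmut, unlike against controls of the same age.

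Marker levels of islet cell types differed between the groups as well. The 5 delta-cell markers, a list that includes Rbp4, summed to 2084 to 3089 CPM in 8-week controls and 4952 to 6521 CPM in betaSDmut islets, and to 1895 to 3445 CPM and 5142 to 6434 CPM at 4 weeks. The 8 alpha-cell markers summed to 33050 to 41720 CPM and 23680 to 33650 CPM at 8 weeks, but to 26540 to 30880 CPM and 53110 to 64960 CPM at 4 weeks. The 11 beta-cell markers fell short of the controls in both mutants, at 199700 to 220400 CPM beside 238100 to 243500 CPM, and at 167500 to 179800 CPM beside 211700 to 216300 CPM. Acinar markers ranged from 1095 to 10850 CPM in betaSDmut islets beside 8015 to 13340 CPM in their controls, and from 14360 to 41140 CPM in betaKO islets beside 5992 to 11150 CPM. The 3 markers of PP and epsilon cells summed to 3485 to 3563 CPM in 4-week controls and 8349 to 10870 CPM in betaKO islets, but overlapped at 8 weeks (4367 to 4746 CPM and 3983 to 5366 CPM).

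Markers of cells outside the endocrine islet moved as well, some of them in opposite directions in the 2 mutants. The 8 fibroblast and stellate markers were at 145 to 204.5 CPM in betaSDmut islets beside 264.3 to 309 CPM in controls, and at 382.4 to 461.2 CPM in betaKO islets beside 247.3 to 266.8 CPM. The 6 Schwann cell markers, far lower, were at 12.7 to 15.4 CPM beside 26.7 to 33.1 CPM at 8 weeks, and at 20.7 to 24.7 CPM beside 10.9 to 12.0 CPM at 4 weeks. In betaKO islets, endothelial markers were below the controls (375.1 to 461.3 CPM beside 536 to 618.9 CPM), immune markers were below them (15.0 to 43.7 CPM beside 53.5 to 90.6 CPM) and duct markers just above them (328.7 to 343.4 CPM beside 274.2 to 320.6 CPM), while these 3 lists overlapped with the controls at 8 weeks. Of the marker lists named here, the immune list had 1 of its 6 markers at 0 in some islet libraries and the others had none. The part of these cells in the change of the 7 genes was not tested.

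In whole E15.5 pancreas no change of any of the 7 genes was detected in SD mutants. edgeR's quasi-likelihood test called 0 of 7 (0 at an unadjusted p of 0.05, 0 by DESeq2), where 0.00534% of 18723 genes were called. The log2 fold changes ran from -0.24 (SE 0.11) for Clmn to 0.30 (SE 0.31) for Fam134b, and the adjusted p in edgeR's quasi-likelihood test was 0.9998 for each gene. Their median was 0.05, beside 0.01 for all genes. The groups of controls and mutants overlapped for all 7 genes, while 1.61% of all genes were higher and 1.97% lower without overlap. The authors' deposited table gives an adjusted p of 0.9999 for each of the 7. Beta-cell markers summed to at most 1117 CPM in these libraries, and to at least 167500 CPM in islets, a table scaled separately. Whole pancreas therefore cannot show whether the genes change within beta cells of the embryo.

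All 7 genes were expressed in the embryonic pancreas, Man2a1 most and Ramp1 least on the CPM scale, which is not divided by length. Clmn was at 61.0, 66.0 and 51.0 CPM in E15.5 controls and at 49.7, 46.0, 51.4 and 54.1 CPM in SDmut pancreata, so that one control fell among the mutants. Higd1a was at 37.4, 30.4 and 33.3 CPM in controls and at 39.2, 33.1, 42.0 and 35.9 CPM in mutants. Man2a1 ranged from 179.3 to 219.3 CPM in controls and from 165 to 212.5 CPM in mutants. Bambi lay between 24.4 and 35.9 CPM and Fam134b between 12.2 and 29.3 CPM in the 7 libraries, with wide overlap. Ramp1 and Olfml2b were each highest in the libraries with muscle transcripts: Ramp1 was at 7.47 CPM in control 3 and 10.03 CPM in SDmut 2, beside 3.58 to 5.29 CPM elsewhere, and Olfml2b at 39.6 and 41.0 CPM beside 13.4 to 32.5 CPM. Without both libraries their log2 fold changes were 0.06 and -0.01, and no gene of the 7 was called. Control 3 and SDmut 2 also had the highest sums of fibroblast and stellate markers, 14360 and 14780 CPM. Next came control 2 and SDmut 1, both low in muscle markers. Their fibroblast and stellate sums were 12280 and 9969 CPM, with Olfml2b at 27.7 and 32.5 CPM. The part of these cells in the values was not tested. The 11 beta-cell markers summed to 492.8 to 1117 CPM in controls and 212.5 to 345.3 CPM in mutants. The part of that difference in the values of the 7 genes was not tested.

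In neural progenitors, Clmn, Olfml2b and Bambi were higher and Higd1a lower after induction of wild-type Nkx2.2, in edgeR's quasi-likelihood test of iNkx2.2 against pMN. These 4 of 7 calls stand beside 9.49% of 15653 genes called, 4.71% higher and 4.78% lower. Doxycycline was given to every induced library and to no pMN library. Drug and transgene therefore cannot be told apart in the comparisons with pMN. Clmn was at 17.4, 12.6 and 21.3 CPM in pMN and at 51.8, 41.4 and 59.1 CPM in iNkx2.2 cells, with a log2 fold change of 1.57 and an edgeR adjusted p of 0.00267 (SE 0.21). Olfml2b was at 6.68, 5.88 and 9.69 CPM against 17.8, 15.9 and 18.8 CPM, with a log2 fold change of 1.23 and an edgeR adjusted p of 0.00687 (SE 0.20). Every induced library was above every uninduced one for both genes, and the calls held in 11 of 11 other settings.

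In fits without a replicate block, the calls for Bambi and Higd1a depended on single libraries. Bambi was low throughout, at 3.78, 4.61 and 4.10 CPM in pMN and 8.02, 9.17 and 8.45 CPM in iNkx2.2, with a log2 fold change of 1.04 and an edgeR adjusted p of 0.0209 (SE 0.22). The groups did not overlap, yet the call was lost without pMN replicate 1 or 2 or any one iNkx2.2 library, with edgeR adjusted p from 0.0525 to 0.0905 and log2 fold changes from 0.98 to 1.11. Higd1a fell from 73.1, 74.6 and 57.2 CPM to 42.2, 53.8 and 34.9 CPM, with a log2 fold change of -0.65 and an edgeR adjusted p of 0.0380 (SE 0.16). That call was lost without pMN replicate 1 or 2 or iNkx2.2 replicate 1 or 3, with edgeR adjusted p from 0.103 to 0.148 and log2 fold changes from -0.61 to -0.49. With a replicate block, since the numbers pair these libraries, the same 4 genes were called and the count over all genes was 4629 in place of 1486. For replicates 1, 2 and 3, Bambi in iNkx2.2 was 2.12, 1.99 and 2.06 times its level in the pMN library of the same number. For Higd1a these ratios were 0.58, 0.72 and 0.61. Within sequencing lane 2, which holds replicates 1 and 2, the differences of mean log2 CPM were 1.61 for Clmn, 1.36 for Olfml2b, 0.96 for Bambi and -0.63 for Higd1a.

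Fam134b, Man2a1 and Ramp1 were not called after induction of wild-type Nkx2.2. Fam134b was at 18.1, 10.6 and 21.5 CPM in pMN and 25.3, 15.3 and 29.7 CPM in iNkx2.2 (log2 fold change 0.49, edgeR adjusted p 0.390). The groups overlapped, but each iNkx2.2 library was above the pMN library of its own number, by factors of 1.40, 1.45 and 1.38. With the replicate block its edgeR adjusted p was 0.344, in a model that also held the iSDmut libraries. That fit is no test of these pairs alone. Man2a1 was at 39.6, 47.0 and 60.0 CPM and 42.3, 35.6 and 59.9 CPM (log2 fold change -0.09, edgeR adjusted p 0.838). Ramp1 had 2 to 14 counts in these 6 libraries, too few to compare. Across the 7 genes the groups did not overlap for 3 that were higher and 1 that was lower, where 16.0% and 15.4% of all genes did so.

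After induction of the SD mutant protein, whether any of the 7 genes passed the test against pMN depended on the replicate block. Without it, edgeR's quasi-likelihood test called 0 of 7 (4 at an unadjusted p of 0.05, 3 by DESeq2: Clmn, Man2a1 and Bambi), where 3.54% of genes were called. With the block it called 5 of 7, Clmn, Olfml2b and Bambi higher and Man2a1 and Higd1a lower, with edgeR adjusted p from 0.0161 to 0.0494, and 2626 genes in all in place of 554. The 2 iSDmut libraries share only 2 numbers with pMN, and their deviations correlate at 0.42 and 0.06. Clmn was at 26.1 and 34.0 CPM in iSDmut, above each pMN library and below each iNkx2.2 library (log2 fold change over pMN 0.81, edgeR adjusted p 0.0855). Olfml2b, at 10.2 and 12.0 CPM, and Bambi, at 5.49 and 8.85 CPM, were also above every pMN library, with log2 fold changes of 0.58 (edgeR adjusted p 0.185) and 0.79 (edgeR adjusted p 0.111). Man2a1 was below every pMN library, at 21.3 and 29.1 CPM (log2 fold change -0.95, edgeR adjusted p 0.0743). Groups without overlap, 3 higher and 1 lower, compare with 17.2% and 19.2% of all genes. Higd1a, at 59.9 and 58.7 CPM, lay within the range of pMN. Ramp1 had 2 and 31 counts in the iSDmut libraries, and its log2 fold change of 1.68 became -0.98 without iSDmut 2.

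Set directly against wild-type Nkx2.2, the SD mutant differed in none of the 7 genes by edgeR's quasi-likelihood test, where 0.281% of genes were called. At an unadjusted p of 0.05 there were 5 of 7, and DESeq2 called 1, Man2a1. The log2 fold changes of iSDmut over iNkx2.2 were -0.97 for Fam134b (edgeR adjusted p 0.329), -0.86 for Man2a1 (0.209), -0.75 for Clmn (0.228), -0.65 for Olfml2b (0.266) and 0.44 for Higd1a (0.353). With the replicate block 0 of the 7 were called, and 528 genes in all in place of 44. Nkx2-2 transcripts were themselves fewer in iSDmut than in iNkx2.2 cells, at 248 and 244.6 CPM beside 377.7, 342.9 and 342.9 CPM (log2 fold change -0.53, edgeR adjusted p 0.370), with no overlap. The 2 proteins were made in different stem cell lines and the iSDmut group has 2 libraries, so line, transgene level and mutation cannot be told apart. For iSDmut 2, the only library in lane 3, sequencing lane is a further such difference. The authors' deposited table of progenitor genes holds 2 of the 7, Clmn and Olfml2b. That deposited table calls both for wild-type Nkx2.2 over pMN (log2 fold changes 1.59 and 1.27) and neither for the SD mutant (1.04 and 0.68).

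**Figure D4:**
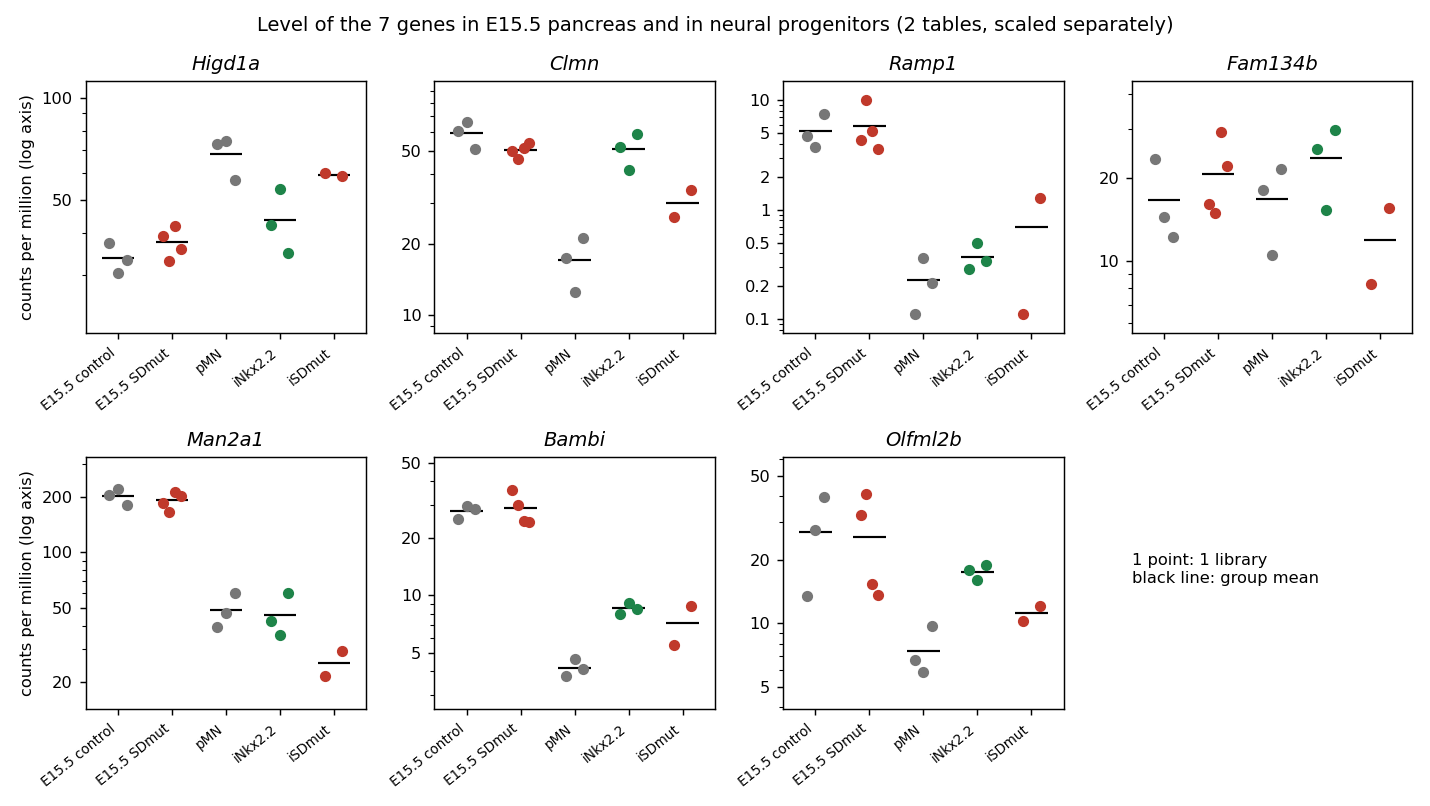
Level of each of the 7 genes (TMM-scaled CPM, log axis) in E15.5 pancreas and in progenitors: 1 point per library, with the group mean as a line. The 2 tables were scaled separately, so levels should be compared within a table. Controls and SDmut overlap in the pancreas for all 7 genes, and Clmn, Bambi and Olfml2b step up from pMN to iNkx2.2.

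**Figure D5:**
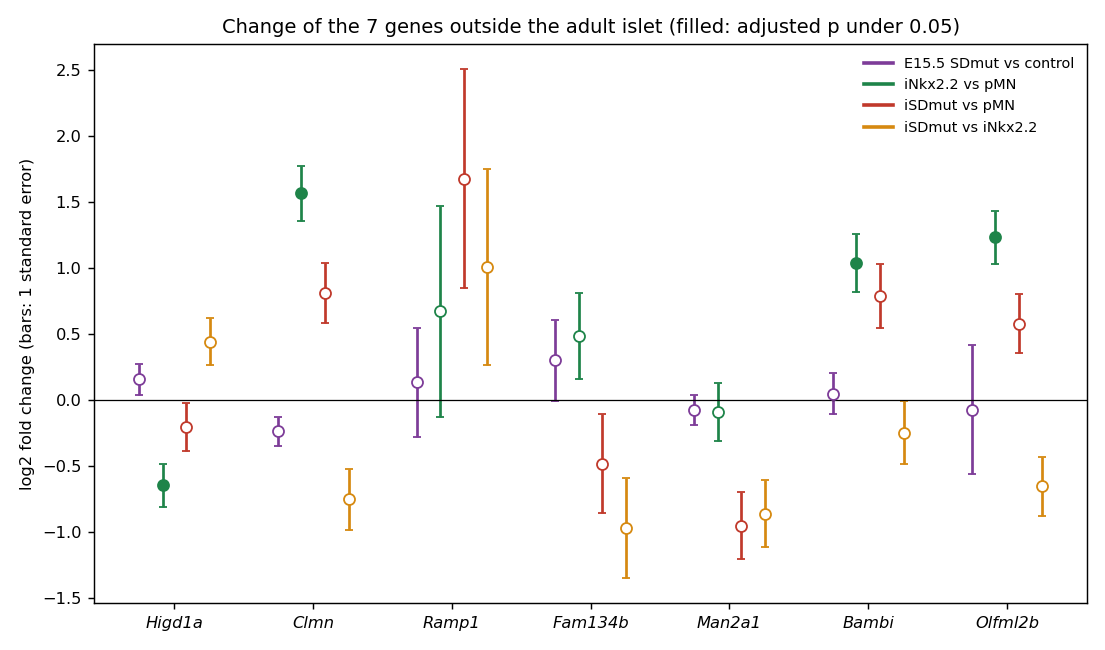
Log2 fold change of each of the 7 genes in the E15.5 comparison and 3 progenitor comparisons, with bars of 1 standard error and filled points where the adjusted p was under 0.05. The filled points are Higd1a, Clmn, Bambi and Olfml2b in iNkx2.2 over pMN, and the E15.5 points lie between -0.24 and 0.30.

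Over all 9 groups, with the reservation that the 3 tables were scaled separately, 5 of the genes were highest in betaSDmut islets. The genes were chosen for high values in mutant islets, so this order was partly set in advance and is a description. Higd1a, Clmn, Ramp1, Fam134b and Olfml2b had group means of 79.0, 76.5, 31.6, 79.0 and 95.2 CPM there, each without overlap with the group next in order. Bambi was highest in betaKO (126.3 CPM) and betaSDmut islets (121.8 CPM), which overlapped. Man2a1 was highest in E15.5 controls (201.3 CPM), E15.5 mutants (191 CPM) and betaSDmut islets (188.4 CPM), neighbours whose libraries overlapped. The lowest levels of Higd1a, Clmn and Fam134b were in 4-week control islets (9.14, 7.46 and 10.1 CPM). Those of Ramp1, Bambi and Olfml2b were in pMN (0.229, 4.17 and 7.42 CPM) and that of Man2a1 was in iSDmut cells (25.2 CPM).

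The partners of Ramp1 and Fam134b were not called in the islets. Among 6 genes tested for CGRP, amylin and adrenomedullin ligands and receptors, leaving out Ramp1 itself, edgeR called 0 in betaSDmut (2 at an unadjusted p of 0.05, 1 by DESeq2) and 0 in betaKO islets (1 unadjusted, 0 by DESeq2). Among 14 receptors and adaptors of reticulophagy and autophagy, edgeR called 0 in betaSDmut (2 unadjusted, 2 by DESeq2) and 0 in betaKO (4 unadjusted, 1 by DESeq2). The medians of these lists lay between -0.14 and 0.03 in both comparisons.

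Some genes of the BMP and TGF-beta pathway around Bambi were called. The called shares of all genes were 4.07% higher and 3.87% lower at 8 weeks, and 0.810% and 0.750% at 4 weeks, and such small counts within the list are given beside them as values only. In betaSDmut islets edgeR called 3 of 36 higher and 1 lower: Tgfbr3, a coreceptor that presents TGF-beta, rose by 1.23 on the log2 scale (SE 0.15), the ligand Bmp2 by 2.65 (SE 0.41) from 0.438 CPM, and the type I receptor Bmpr1b by 3.10 (SE 0.51) from 0.704 CPM. Tgfbr1, the type I TGF-beta receptor, fell by 0.48 (SE 0.10). In betaKO islets 1 of 35 was called, the activin receptor Acvr1c, at a log2 fold change of 1.70 (SE 0.14). In this list 8 genes had an unadjusted edgeR p under 0.05 in betaSDmut and 5 in betaKO islets. DESeq2 called 5 and 1.

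Among 18 enzymes of N-glycan processing, the pathway of Man2a1, the branching enzyme Mgat5 rose by 0.69 (SE 0.10) and the sialyltransferase St6gal1 fell in betaSDmut islets (log2 fold change -1.15, SE 0.14). In betaKO islets the Golgi mannosidase Man1c1 rose by 0.89 (SE 0.13). Around Higd1a, of 16 genes of the HIG1 family and of the hypoxia response, lactate dehydrogenase Ldha rose from 10.6 to 188.4 CPM in betaSDmut islets (log2 fold change 4.15, SE 0.19) and Ndrg1 fell by 0.52 (SE 0.10). In betaKO islets 0 of these 16 were called (4 unadjusted, 1 by DESeq2). The olfactomedin relatives of Olfml2b gave 0 of 7 in betaSDmut (3 unadjusted, 3 by DESeq2) and 1 lower in betaKO, Olfm4 (log2 fold change -1.72, SE 0.25).

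Clmn is known as a retinoic acid-induced gene. Of the retinoic acid pathway, 3 of 14 genes rose and 2 fell in betaSDmut islets, among them the retinol carrier Rbp4 (log2 fold change 3.68, SE 0.12), the synthesis enzyme Aldh1a3 (4.13, SE 0.46) and the receptors Rara (-1.18, SE 0.12) and Rxra (-0.39, SE 0.08). In betaKO islets 2 of 13 rose, Rbp4 (2.89, SE 0.11) and Aldh1a2 (3.27, SE 0.46). All calls in these lists are edgeR's at an adjusted p of 0.05 over all genes, and they rest on few controls. Of 1224 genes called at 8 weeks, 45 and 37 were called without control 1 and control 2, and of 233 at 4 weeks, 4 and 15.

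In E15.5 pancreas edgeR called 0 genes of each of these 7 lists (1 gene at an unadjusted p of 0.05, in the BMP and TGF-beta list, and 0 by DESeq2). In progenitors the hypoxia-list glucose transporter Slc2a1 (log2 fold change -1.42, SE 0.23) and Olfml3 (-1.32, SE 0.15) were lower in iNkx2.2 than in pMN. The autophagy adaptor Sqstm1 (0.46, SE 0.09) and Map1lc3b (0.50, SE 0.11) were higher. Of 18 N-glycan enzymes Man1c1 rose (0.98, SE 0.21), while the fucosyltransferase Fut8 (-0.48, SE 0.10) and the glucosidase Mogs (-0.45, SE 0.10) fell. Of 37 BMP and TGF-beta genes 2 rose, the ligands Bmp7 (0.97, SE 0.23) and Tgfb3 (1.03, SE 0.26), and 3 fell, among them the activin receptor Acvr2a (-0.72, SE 0.09) and Smad9 (-1.32, SE 0.35). Over all genes 4.71% were called higher and 4.78% lower in that comparison. Of 18 retinoic acid genes 5 fell and 0 rose, among them Rxra (-0.80, SE 0.14) and the binding protein Crabp1 (-1.10, SE 0.19). Of 8 neural progenitor markers 5 fell in the same comparison, Olig2 by a log2 fold change of -5.36 (SE 0.57) and Pax6 by -5.54 (SE 0.38).

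Protein-coding neighbours within 150000 bp of the 7 genes were mostly not called. Of 21 tested at 8 weeks, edgeR called 3 higher and 1 lower, where 4.07% of all genes were called higher and 3.87% lower, and of 20 at 4 weeks 0 (5 at an unadjusted p of 0.05, 1 by DESeq2), where 0.810% and 0.750% were. The exception in size was Ccdc13, a coiled-coil gene 9042 bp from Higd1a, with 0.239 and 0.260 CPM in 8-week controls and 25.3, 40.5 and 37.6 CPM in betaSDmut islets (log2 fold change 7.08, edgeR adjusted p 0.00122). At 4 weeks it was at 0.297 and 0.119 CPM in controls and 0.769 and 1.40 CPM in betaKO islets, a log2 fold change of 2.22 (edgeR adjusted p 0.208). The strong site upstream of Higd1a lies 30715 bp from the start of Ccdc13, which has no joined site of its own. The other calls at 8 weeks were Pomgnt2 (1.19) near Higd1a, Lrrfip1 (0.69) near Ramp1 and Myo10 (-0.57) near Fam134b.

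Across the 9 islet libraries, which fall into 4 groups, the gene whose log2 CPM followed the mean of the 7 most closely was Asph (Pearson r 0.99 among 11707 genes averaging log2 CPM 2 or more), an enzyme that hydroxylates aspartate. AU040320, Gm5595, Zcchc12 and BC017612 came next. Taken singly, Higd1a was closest to the potassium channel gene Kcnj13, Clmn to Syne1, Ramp1 to Cmtm8, Fam134b to AU040320, Man2a1 to Itpr1, Bambi to Frk and Olfml2b to Cd200, with r from 0.97 to 1.00. Among the 7 genes, r ran from 0.59 for Bambi with Olfml2b to 0.99 for Higd1a with Fam134b. The libraries share their groups, so these values describe the pattern and carry no test.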

How the data were processed

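The read counts per gene for islets, E15.5 pancreas and progenitors are raw, as the authors deposited them, per the deposited description. The submitters' processing notes name STAR, Cufflinks and mm10 without roles; the counting rule and the use of strand are not given in the sources used here, so overlapping and antisense genes are uncertain. FPKM values, log2 fold changes, calls of -1, 0 or 1 (a score from the authors' edgeR and limma) and adjusted p-values (DESeq2, E15.5) were deposited by the authors and are used only where named. For ChIP-seq the authors deposited counts in windows at GEM events and log2 CPM at final sites, per the deposited description. The 4-week samples are labelled as genomic DNA but hold gene counts.

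Differences in counts were fitted in R 4.3.3 by edgeR 4.0.16 (TMM scaling, filterByExpr, robust quasi-likelihood test, Benjamini-Hochberg threshold 0.05 over all genes). The standard error is the size of the log2 fold change over the root of the F statistic, and levels are TMM-scaled CPM. Each islet comparison used the libraries of its age, the difference of effects used all 9, and the progenitor comparisons used 1 model of 3 groups. Fits recovered known changes in simulated data, which held only large changes in well-counted genes and the same spread for every gene. The simulation does not measure how well calls hold with these few libraries. DESeq2 1.42.0, limma 3.58.1 and Python 3.11.15 served for alternatives and checks. 1 deposited column of no labelled sample was not used. Coordinates are GRCm38 with GENCODE genes and RefSeq promoters: 3.34% of final sites lay within 100 bp of a gene start, and 0.309% after a shift of 10000 bp.

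Replicate numbers of pMN and iNkx2.2, which come from the titles, pair the libraries (correlations of deviations 0.73, 0.77 and 0.77). The members and gene lists were chosen with earlier results of these data known. Named genes are the 7, up to 4 called genes per list by adjusted p, called neighbours and the genes most alike across islet libraries. Lane values were added after the data were seen.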

Additional observations from a re-analysis of the deposited data

How the results depend on the processing

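The 7 genes kept the sign of their islet changes in all settings. Elsewhere some signs turned: leaving out 1 library at a time at E15.5, Ramp1 ran from -0.26 to 0.46 (negative without control 2 or SDmut 2), Bambi from -0.074 to 0.12 (negative without control 1 or SDmut 1), and Olfml2b from -0.39 to 0.32 (positive without control 3, SDmut 3 or SDmut 4, and 0.13 with a block for the number in the title). In progenitors Man2a1 in iNkx2.2 over pMN ran from -0.32 to 0.10 (positive without pMN 3 or iNkx2.2 replicate 2). Ramp1 in iSDmut ran from -0.98 to 2.49 over pMN and from -1.65 to 1.82 over iNkx2.2, at the low ends without iSDmut 2. Bambi in iSDmut over iNkx2.2 ran from -0.64 to 0.053 (positive without iSDmut 1).

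Counts of called genes moved more. DESeq2 called 28 genes at E15.5, 1999 at 8 weeks, 798 at 4 weeks, 1349 for iSDmut over pMN, 496 for iSDmut over iNkx2.2, 663 for the difference of islet effects and 160 higher in both islets, and among the 7 genes 3 for iSDmut over pMN, 1 for iSDmut over iNkx2.2 and 8 calls in all against 4. With no count filter, 372 genes were called at 4 weeks and 145 for iSDmut over iNkx2.2. One model of all 9 islet libraries called 428 at 4 weeks and 120 higher in both. Fits of only the groups compared called 295 for iSDmut over pMN and 13 over iNkx2.2. Leaving out single libraries gave 0 to 2 genes at E15.5, 37 to 2765 at 8 weeks (against 1224), 4 to 478 at 4 weeks (against 233), 412 to 1299 for iNkx2.2 over pMN (against 1486), 171 to 349 for iSDmut over pMN (against 554), 2 to 467 for iSDmut over iNkx2.2 (against 44), 0 to 343 for the difference of islet effects (against 194), 2 to 74 higher in both and 2 to 4 of the 7 genes for iNkx2.2 over pMN. The cause was not tested, beyond the smaller number of samples or genes that each setting has by construction. Only 1 joined site of the 7 genes was among the 647 strongest, and windows of 100 bases at the joined sites searched held 0 matches to TNAAGT.

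The replicate block gave 757 genes at 8 weeks, 4629 for iNkx2.2 over pMN, 2626 for iSDmut over pMN, 528 for iSDmut over iNkx2.2 and 0 genes at E15.5 (title number). It called 5 of the 7 genes for iSDmut over pMN (Higd1a, Clmn, Man2a1, Bambi and Olfml2b). For islets the numbers do not pair the libraries (correlations -0.05, 0.04 and 0.05), and iSDmut shares only 2 numbers with pMN. Ramp1 is limited by depth in progenitors, at 2 to 31 counts per library.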
